A study of Mus musculus with 4 samples.

Results

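The listed Egr2 regions at the mouse Ptpn7 locus number 2 of 6212 in all, 1 of the 4216 regions listed for thymocytes of antibody-injected mice and 1 of the 1996 listed for natural killer T (NKT) cells. They were taken as every region overlapping chr1:136990000-137070000 (mm9), a window of 80 kb. The locus was chosen by the measured ChIP tag density, the height of a peak, because its region came first among positions found in both lists when the 2 ranks by height were added, so its height, its ranks by height and its overlap are given as a description, with no test. Egr2 was mapped by chromatin immunoprecipitation and sequencing (ChIP-seq) in 1 library per condition, among 4 libraries of the series that also include input DNA and an IgG control, which were not analysed as libraries of their own. The first preparation held thymocytes from 3 to 5 mice, taken 24 hours after 500 µg of the antibody H57 against TCRβ, the T cell receptor β chain. The second held NKT cells of Va14tg mice, enriched with CD1d tetramers loaded with the lipid aGC, pooled from an average of 10 mice. The strain label is Va14tg for both preparations, so the thymocytes as well as the NKT cells carry that transgene by label, and neither the promoter that drives it nor the age of the mice was given in the sources used here. Each preparation used 20000000 cells, and none of the values below has a replicate check.

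Ptpn7 encodes the haematopoietic tyrosine phosphatase HePTP, found mainly in blood-forming cells and lymphocytes. It binds MAP kinases through a kinase interaction motif, removes the phosphate from the tyrosine of their activation loop, and so limits signalling below the T cell receptor. Egr2 is a zinc-finger transcription factor made after receptor engagement, and NKT cells need it to develop. Proteins of the EGR family bind GC-rich DNA.

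The RefSeq table used here gives Ptpn7 (gene ID 320139) on the plus strand with 2 transcription starts 609 bp apart, both on GRCm38.p6. The Egr2 lists are on mm9 and coordinates were not converted, so which of the starts the listed region covers, and that it covers either, was not checked here. The gene name of the region comes from the rule for the locus. In gene order on GRCm38, Ptpn7 lies between Ptprv, a transcribed pseudogene of a receptor-type tyrosine phosphatase that overlaps the annotated span of Ptpn7, and Arl8a, which encodes a small GTPase that moves lysosomes. Lgr6, a receptor for R-spondins, and Gpr37l1, a G protein-coupled receptor, come next on either side. The 250 bases before each start are shown as a description of the promoter sequence. Whether the listed Egr2 region covers any of them was not checked, and bases after the starts were not searched. Capitals mark matches to the EGR variant GCGTGGGNG and to the GC box GGGCGG, the motif of Sp and KLF factors, on either strand. The first window is chr1:135132450-135132699 and the second chr1:135133059-135133308, both GRCm38.p6, plus strand, 5′ to 3′. Of the first window, 126 bases lie inside the annotated span of Ptprv.
Ptpn7 start 1: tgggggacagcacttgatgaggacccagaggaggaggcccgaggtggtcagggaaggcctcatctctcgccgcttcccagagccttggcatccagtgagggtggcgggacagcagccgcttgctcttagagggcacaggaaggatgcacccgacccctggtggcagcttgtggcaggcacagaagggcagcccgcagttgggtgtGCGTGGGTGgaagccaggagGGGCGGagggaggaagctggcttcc
Ptpn7 start 2: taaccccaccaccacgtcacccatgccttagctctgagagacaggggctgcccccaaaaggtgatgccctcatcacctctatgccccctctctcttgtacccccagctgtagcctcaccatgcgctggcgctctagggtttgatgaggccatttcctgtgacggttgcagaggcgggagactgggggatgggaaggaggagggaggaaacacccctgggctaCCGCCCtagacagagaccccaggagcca

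The first window held GCGTGGGTG on the plus strand, 45 to 37 bases before the start, and GGGCGG on the plus strand 25 to 20 bases before it. The second window held GGGCGG on the minus strand, 28 to 23 bases before the start, and no match to GCGTGGGNG. The EGR motif GCGNGGGCG was in neither window, and it was in 4.70% of all 32851 windows of that length in the table. GCGTGGGNG was found in 1.65% of those windows and GGGCGG in 32.7%, each searched on both strands. The variant was chosen after the Ptpn7 sequence had been read, so its presence there is a description only. GCGTGGGNG and GCGNGGGCG overlap, so that some windows count for both. The E box CANNTG, the motif of bHLH factors, occurred in both Ptpn7 windows and in 66.2% of all windows. The ETS motif CCGGAAG, the RUNX motif TGTGGT, the CRE motif TGACGTCA and the TATA motif TATAAA occurred in neither. They were in 6.91%, 14.0%, 1.55% and 12.4% of all windows. The G and C share was 66.0% in the first window and 61.2% in the second, against a median of 52.4% over all windows, and the CpG counts were 9 and 6 against a median of 6.

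In injected thymocytes the Ptpn7 region was chr1:137029077-137029512, 436 bp wide, with its summit at 137029246. Its ChIP tag density, the authors' height value at the summit, was 81.0, and the control density there was 0.633. In NKT cells the region was chr1:137029055-137029432, 378 bp wide, its summit at 137029243, and the ChIP and control densities there were 39.1 and 1.30. The summits thus lay 3 bp apart. The left edges were 22 bp apart and the right edges 80 bp apart, and the common stretch of 356 bp made up 81.7% of the thymocyte region and 94.2% of the NKT region. Both regions at the locus were shared between the lists, where 8.42% of all thymocyte regions and 17.7% of all NKT regions overlapped the other list by at least 1 bp, and overlap was part of what chose the locus. Among the 354 shared pairs, 17 had summits closer together than at Ptpn7, 10 had the same distance and 326 were farther apart, with a median of 32 bp. The common stretch at Ptpn7 was longer in bp than in 329 pairs, and both Ptpn7 regions were wider than the median shared region (333 and 261 bp). As a share of the thymocyte region it was exceeded in 139 pairs, and as a share of the NKT region in 221 pairs, where the median was 100%. The edges differed on both flanks, the NKT region reaching farther left and the thymocyte region farther right. The summit was in the middle of the NKT region, 188 bp from its left edge and 189 bp from its right, whereas in injected thymocytes it was 169 bp from the left edge and 266 bp from the right.

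**Figure D1:**
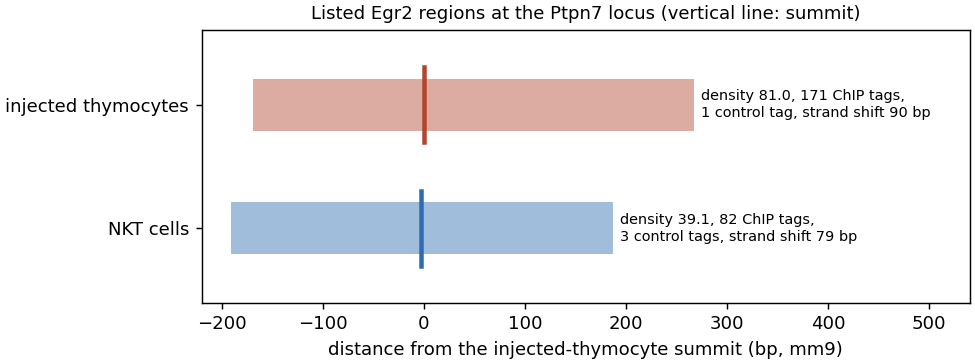
Extent of the listed Egr2 region at the Ptpn7 locus in each list (bars) and its summit (vertical lines), as distance in bp from the injected-thymocyte summit on mm9. The summits are 3 bp apart, and the injected-thymocyte region reaches 80 bp farther to the right.

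No other listed region fell in the 80 kb window in either list, so the locus held a single Egr2 position. The nearest other region of injected thymocytes, chr1:137155690-137155953, was 126.5 kb to the right, holding 31 ChIP tags and 0 control tags at a density of 15.5. The nearest other region of NKT cells, chr1:137195343-137195468, was 166 kb to the right, holding 15 ChIP tags and 3 control tags at a density of 11.8. Neither of these neighbours was shared. To the left the nearest regions lay 1461 kb away (thymocytes) and 817.5 kb away (NKT). Over all listed regions the median distance to the nearest region of the same list was 172 kb for the thymocyte list and 394 kb for the NKT list. The nearest region to Ptpn7, on its right, was thus closer than the median in both lists, and the left-hand regions were farther than it. The nearest region was farther away than at Ptpn7 for 58.8% of thymocyte regions and 71.9% of NKT regions. Regions are numbered by falling density, and part of the numbers is absent from the lists as analysed, so whether an absent one lay near Ptpn7 is not known here.

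By density the Ptpn7 region was the third of 4216 in injected thymocytes and the seventh of 1996 in NKT cells. The deposited numbers of the regions are 12 and 77. Of the numbers 1 to 11 in injected thymocytes 9 are absent from the list as analysed, and of the numbers before 77 in NKT cells 70 are absent, so ranks as analysed are better than ranks among all numbered regions. The density was 7.24 times the median of its list in injected thymocytes (11.2) and 3.52 times that in NKT cells (11.1). Just above it in injected thymocytes were chr3:153575771-153576264 with a density of 97.0 and chr6:90319236-90319644 with 90.4, and just below it chr8:87437078-87437469 with 77.9 and chr7:135110626-135111210 with 75.1. All 4 of these thymocyte regions were shared, and their NKT partners had densities of 11.4, 22.6, 23.7 and 23.6, against 39.1 at Ptpn7. For the chr3 and chr6 regions a partner lower than at Ptpn7 follows from the choice of the locus by summed ranks. In NKT cells the region just above was chr12:117643451-117643826 with 39.6, after chr2:172909264-172909598 with 41.5, which was not shared. Just below were chr17:28134198-28134554 with 37.7 and chr19:8786383-8786800 with 36.0. The thymocyte partners of the chr12, chr17 and chr19 regions had densities of 63.1, 46.5 and 37.7, against 81.0 at Ptpn7. For the chr12 region this order too follows from the choice of the locus.

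Among the shared pairs, 2 were taller than Ptpn7 in injected thymocytes and another 2 in NKT cells, and none was taller in both. The locus was chosen for the smallest sum of density ranks, so a pair taller in both could not occur. By ChIP tags, a count over the region that is not independent of its height, 3 pairs were higher in injected thymocytes, 6 in NKT cells and none in both. Of the 20 tallest thymocyte regions 16 were shared, and their NKT partners ranged from 11.4 to 39.6 with a median of 14.7. Ptpn7 was the second highest of these 16. Of the 20 tallest NKT regions 13 were shared, with thymocyte partners up to 81.0, the value at Ptpn7, and a median of 36.6. The NKT density divided by the thymocyte density was 0.482 at Ptpn7. It was lower in 82 pairs and higher in 271, with a median of 0.675 and quartiles of 0.497 and 0.908. The scaling of density between the lists is not stated, so this ratio serves to place Ptpn7 among the pairs and is no difference in binding. Over all shared pairs, Ptpn7 thus stood on the thymocyte side of the median. Its neighbours by thymocyte density, on chr3, chr6, chr8 and chr7, had lower ratios of 0.118, 0.250, 0.304 and 0.315. Its shared neighbours by NKT density, on chr12, chr17 and chr19, had higher ratios of 0.628, 0.811 and 0.955. The ratio is built from the densities that chose the locus.

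**Figure D2:**
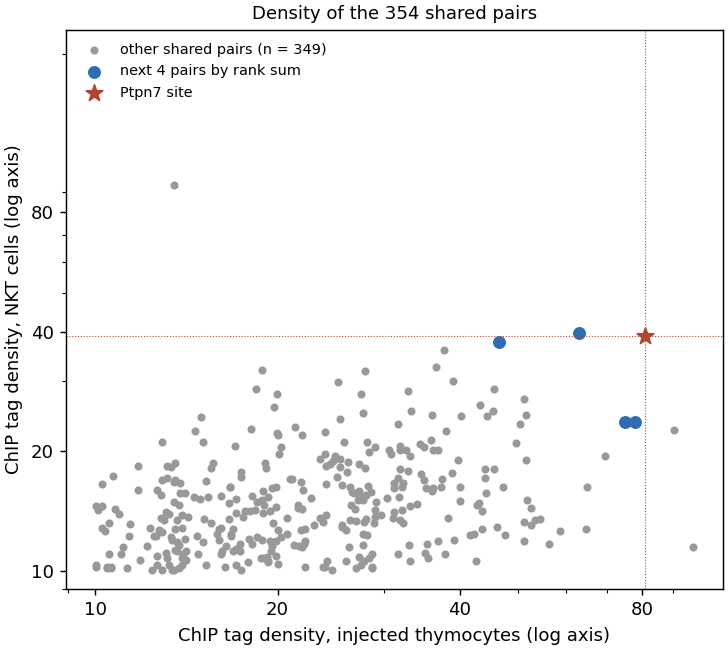
ChIP tag density of the 354 shared pairs in injected thymocytes (horizontal, log axis) and NKT cells (vertical, log axis), 1 point per pair; dotted lines mark the Ptpn7 values of 81.0 and 39.1. No pair lies above and to the right of Ptpn7, as its choice by summed density ranks requires, and 349 pairs are lower in both lists.

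The Ptpn7 region held 171 ChIP tags against 1 control tag in injected thymocytes and 82 against 3 in NKT cells. Per 100 bp this was 39.2 ChIP tags in injected thymocytes and 21.7 in NKT cells, where the list medians were 10.7 and 10.2. After scaling by 1 factor per list (0.742 and 1.14), the ratio of ChIP to control tags was 127 in injected thymocytes (95% exact interval 22.5 to 5038) and 31.04 in NKT cells (10.3 to 154). The width of both intervals comes from the 1 and 3 control tags, and they cover counting error only. The deposited tag enrichments are lower, 32.2 and 18.8. They follow a rule that held for every region of both lists to within 4.88e-06 of its value: the ChIP tags, times the factor of the list, are divided by the control tags or by a floor, whichever is larger. The floor is 9.02 control tags per kb in injected thymocytes and 13.1 per kb in NKT cells, taken over the width of the region or over 301 bp where it is narrower. At Ptpn7 the floor is 3.93 control tags in injected thymocytes and 4.96 in NKT cells, above the 1 and 3 tags counted, so both deposited enrichments rest on the ChIP tags and the width alone. An enrichment of 1 would be 5.30 ChIP tags in the thymocyte region and 4.36 in the NKT region. With the floor held fixed, the exact Poisson intervals of the ChIP tags give an enrichment of 27.6 to 37.5 for the thymocyte region and of 14.9 to 23.3 for the NKT region.

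By tag enrichment Ptpn7 was the first of the 1996 regions in the NKT list and the third of the 4216 in the thymocyte list. In NKT cells the chr12 region followed with 18.4, from 81 ChIP tags over 376 bp. Its 5 control tags exceed its floor, so that value rests on counted control tags, unlike the value at Ptpn7. The exact interval at Ptpn7 holds 18.4, so the order of these neighbours lies within counting error. In injected thymocytes the chr6 region had 34.98 and the chr8 region 32.7, also inside the interval at Ptpn7. Some wider regions held more ChIP tags, as did the narrower chr6 region in injected thymocytes, with 174 tags over 409 bp. By that count Ptpn7 was at rank 10 in injected thymocytes and rank 14 in NKT cells. By tags per 100 bp it was at rank 4 and rank 5. Tags, fold and enrichment are not independent of the density that chose the locus.

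**Figure D3:**
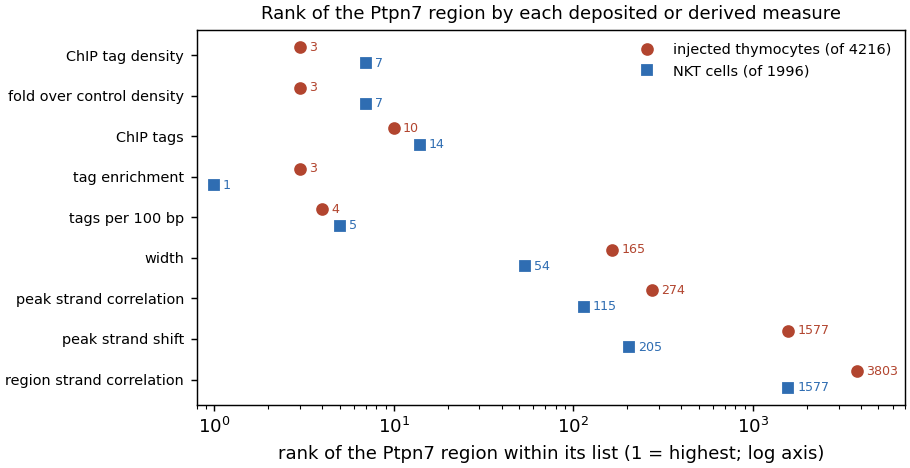
Rank of the Ptpn7 region within its list (log axis, 1 is the highest value) by 9 measures, in injected thymocytes (circles, of 4216) and NKT cells (squares, of 1996). The measures of height and enrichment give ranks of 1 to 14, and width, strand shift and the strand correlations give ranks of 54 and beyond.

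**Figure D4:**
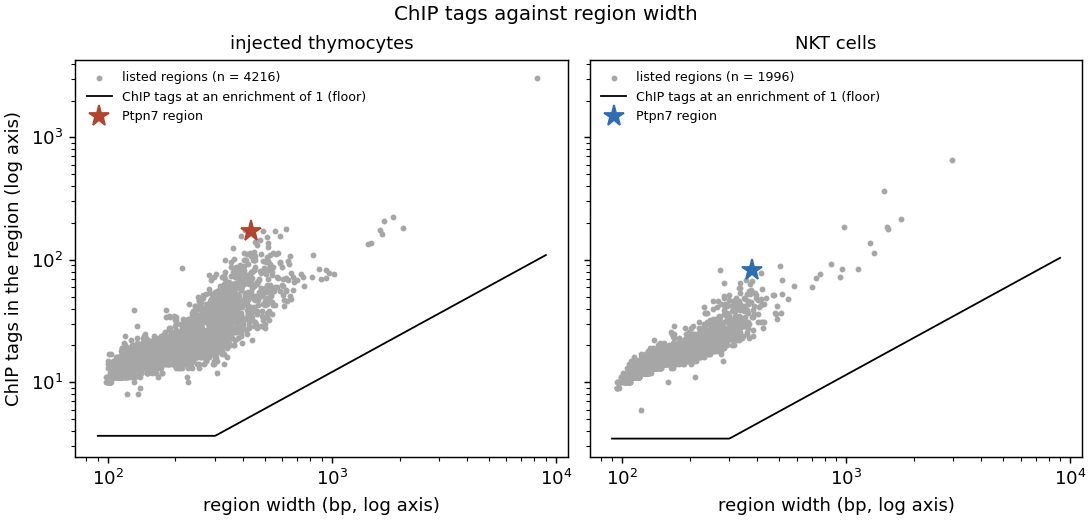
ChIP tags against region width (both log axes) for every listed region, with the number of tags at which the deposited enrichment would be 1 where the floor applies (line) and the Ptpn7 region (star). The Ptpn7 region holds 171 tags over 436 bp in injected thymocytes and 82 tags over 378 bp in NKT cells, 32.2 and 18.8 times the line.

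Strand shift, a deposited value in bp for the offset between forward and reverse tags, was not used to pick the locus. At the Ptpn7 peak it was 90 bp in the thymocyte list and 79 bp in the NKT list, a difference of 11 bp. Over the 354 shared pairs the thymocyte shift exceeded the NKT shift by a median of 16 bp (quartiles 3 and 34), so the difference at Ptpn7 lay between the quartiles. In injected thymocytes 90 bp was close to the list median of 86 bp. In NKT cells 79 bp was above the median of 45 bp for the whole list and above the 42 bp of peaks found in that list only. It was within the quartiles of 58 and 81 bp of shared peaks. Regions found in the NKT list only were also narrower, with a median width of 133 bp against 261 bp for shared regions and 378 bp at Ptpn7. Whether strand shift goes with width was not tested. A deposited correlation, called strand correlation here and given without a formula, was 0.982 and 0.984 in the peak lines of injected thymocytes and NKT cells. These values ranked 8 of 355 and 9 of 354 among shared regions, whose medians were 0.813 and 0.811. In the whole lists they ranked 274 of 4216 and 115 of 1996, where the medians were 0.884 and 0.886. In the region lines the correlation was lower, at 0.450 and 0.670, where shared regions had medians of 0.618 and 0.740 and the whole lists 0.875 and 0.885. The peak-line values were thus above the median of shared regions in both lists and the region-line values below it, although both kinds of line give the same extent at Ptpn7. The stretch over which each correlation was computed is not stated. Region-line values reached 1.31 in the thymocyte list and 1.46 in the NKT list, more than a plain correlation can reach.

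**Figure D5:**
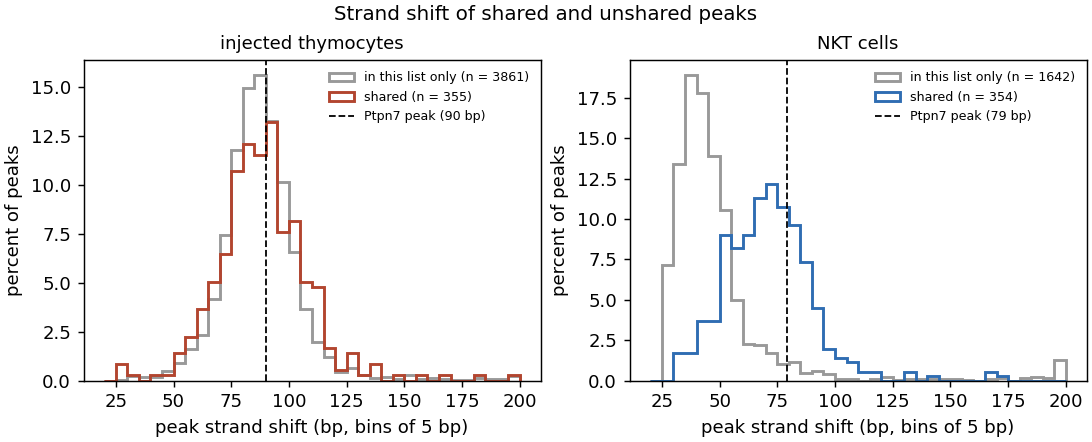
Distribution of peak strand shift (bp, in bins of 5 bp, as percent of peaks) for shared peaks (coloured line) and peaks in 1 list only (grey line), with the Ptpn7 peak as a dashed line. The Ptpn7 peak lies at 90 bp in the thymocyte panel and at 79 bp in the NKT panel, where peaks in that list only have a median of 42 bp.

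The next 4 shared pairs by the sum of density ranks were set beside Ptpn7 by tag enrichment, which is not independent of the density that picked them, and by summit distance and strand shift, which picked none of them. The pair on chromosome 12 had tag enrichments of 24.9 for the thymocyte and 18.4 for the NKT region, summits 18 bp apart and shifts of 76 and 80 bp. The pair on chromosome 17 had 14.7 and 16.7, summits 40 bp apart and shifts of 82 and 67 bp. The pair on chromosome 8 had 32.7 and 11.96, summits 28 bp apart and shifts of 96 and 107 bp. The pair on chromosome 7 had 21.9 and 10.6, summits 29 bp apart and shifts of 94 and 64 bp. Among these 5 pairs Ptpn7 had the closest summits. With 1 library per condition none of these differences has a replicate check.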

How the data were processed

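Each Egr2 library has 1 peak list, deposited by the authors. The submitters' processing notes name Bowtie and mm9. The Bowtie version, the peak caller and the control library are not given in the sources used here. Both lists give ChIP and control tag density at the summit as a deposited signal without stated scaling, and a deposited ratio, the fold of ChIP density over control density, or over 1 where the control density is lower, as at the thymocyte summit of Ptpn7. Region lines add whole tags, and the totals per library are not stated, so the depth behind each value is its tag count.

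Regions and peaks were read as listed with pandas 2.3.3 and ranked within each list. Regions overlapping by at least 1 bp were called shared, and each NKT region was paired with its tallest partner. The tag factor is the median ratio of deposited enrichment to tag ratio in regions with more than 50 control tags (7 in injected thymocytes, 17 in NKT cells). Intervals are 95% exact and cover counting error only; PCR duplicates are not independent molecules. Overlap, factor and floor were checked on simulated lists. Promoter windows come from RefSeq on GRCm38.p6. Items named were the regions in the window, the next 4 pairs, 2 regions on either side by rank, and the genes next to Ptpn7. The locus, the lists and the measures were chosen with earlier results of these data known. Whether the lists count from 0 or 1 was not given. The alternatives tried were other ranks, overlaps, windows and factors. A planned gene list for the promoter windows is not reported here.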

Additional observations from a re-analysis of the deposited data

How the results depend on the processing

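The Ptpn7 pair stayed shared with a reciprocal overlap of 50% and with summits within 100 bp. The pair was chosen for being first by summed density ranks, and its place was also first by ChIP tags, fold, tag enrichment, the worse rank, summed percentiles, density among regions with a control density under 3 (330 pairs) and, added after seeing the data, the deposited numbers. These reuse the density or depend on the height, so they are no independent support. In injected thymocytes the rank of 3 became 10 by ChIP tags, 4 by tags per bp and 12 by deposited number. In NKT cells the rank of 7 became 14, 5 and 77, and 1 by tag enrichment. Widening the window by 100 kb and 500 kb on each side raised the listed regions from 1 to 2 and 3 in injected thymocytes, and by 500 kb from 1 to 2 in NKT cells. Tag ratios were 171 and 27.3 without a factor, inside their intervals, which are so wide that this is a weak check. With the factor from regions with more than 20 control tags they were unchanged. The deposited enrichments are built with 1 factor per list, so that setting could hardly change them. No paired analysis was possible because each condition has 1 library. Between 1 and 3 control tags limit the precision at Ptpn7.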

Other observations

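The floor in the deposited tag enrichment bears on how far these values can be read across each list. It took the place of the counted control tags in 2542 of the 4216 injected-thymocyte regions (60.3%) and in 920 of the 1996 NKT regions (46.1%). In such regions, the Ptpn7 regions included, the enrichment holds no information from the local control beyond its being below the floor.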
